A study of Homo sapiens with 17 samples.

Results

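Heterogeneous nuclear ribonucleoproteins (hnRNPs) are abundant RNA-binding proteins that coat nascent transcripts in the nucleus and act in splicing, polyadenylation, export, stability and translation of mRNA. Most of them bind RNA through RNA recognition motifs (RRMs), and hnRNP K does so through KH domains. Several hnRNP genes are known to limit their own expression by alternative splicing into transcripts that are destroyed by nonsense-mediated decay. The mRNAs described here are those of 10 genes taken by their symbol, HNRNPA1, HNRNPA2B1, HNRNPC, HNRNPD, HNRNPDL, HNRNPH1, HNRNPK, HNRNPL, HNRNPM and HNRNPU, out of 18869 genes in the table. All 10 had an editing value in each fraction, and 9 had an abundance value. The exception was HNRNPA1.

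RNA was taken from HEK293T cells, a human embryonic kidney line, into whose genome a doxycycline-inducible construct had been placed by lentivirus. RPS2-STAMP cells made the cytidine deaminase APOBEC1 joined to RPS2, a protein of the small ribosomal subunit, so that C-to-U edits were left on RNAs in contact with ribosomes, and Control-STAMP cells made APOBEC1 alone. Cells of both kinds received doxycycline at 50 ng/ml over 24 h and were crosslinked in 0.1% formaldehyde. Their lysate was used for an immunoprecipitation (IP) of PABPN, the nuclear poly(A)-binding protein, and for an IP of PABPC, its cytoplasmic counterpart. The sample labels do not state whether the same lysate served both IPs. The RPS2-STAMP samples were 3 Inputs, 3 PABPN IPs and 3 PABPC IPs, and the Control-STAMP samples were 3 Inputs, 3 PABPN IPs and 2 PABPC IPs. The lysate is described by the study as cytoplasmic, which the sample labels do not state.

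Editing is given as EPKM, the edits scaled by transcript length and sequencing depth, from which the authors subtracted the editing of the control. EPKM is not scaled by the abundance of the gene in the fraction, and edits per RNA were not computed. More or less edited below refers to EPKM. Abundance is given as TPM, averaged by the authors within a fraction. Each gene had 1 EPKM and at most 1 TPM for each of these 3 fractions, pooled over replicates. A TPM was missing for some genes, HNRNPA1 among them. No SD, n or test accompanies a value, and no difference below has a replicate check. The number of edits and reads behind each value is unknown. As background, the same measures were taken over 9607 protein-coding genes (PCGs) whose TPM reached 5 in each IP, among them the 9 hnRNP genes that had a TPM.

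The cell line and the fractions were checked on marker genes. All 7 markers set for HEK293T cells were listed, with a summed TPM of 278 in the Input, of which VIM made up 184 and KRT8 made up 2.16. Among 5 markers of other cell types, PTPRC, ALB, PECAM1 and HBB were not listed among the genes of the table, and COL1A1 had an Input TPM of 1.90. The nuclear RNA MALAT1 had a TPM of 208 in the PABPN IP and 10.3 in the PABPC IP, and NEAT1 had 55.8 and 3.25. RPL7A, a ribosomal protein mRNA of the cytoplasm, had 1439 in the PABPN IP and 5055 in the PABPC IP. RPS2 had 10493 and 27182, which may include reads of the RPS2 construct. The nuclear RNAs were thus higher in the PABPN IP and the ribosomal protein mRNAs in the PABPC IP, and the part that nuclear RNA played in the values of the hnRNP mRNAs was not tested.

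APOBEC1 acts on cytosines, and the hnRNP mRNAs held few of them. In the canonical transcript of GENCODE release 44, cytosines made up 18.2% of the mRNA at the median of the 10 genes and 23.7% at the median of 9605 PCGs. The share was below the PCG median in every hnRNP gene except HNRNPL (26.2%), and 7 of the 10 lay below the lower PCG quartile of 19.8%. HNRNPA2B1 had the lowest share, 15.2%. Across the 10 genes the cytosine share and the EPKM had Spearman rhos of -0.042 in the Input, -0.13 in the PABPN IP and 0.22 in the PABPC IP, given as a description of 10 genes that share their libraries.

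The stretch that codes for RNP1, the conserved core of an RRM, was searched for in 9 of the genes by 1 amino acid pattern. The pattern matched in 4, which are shown to let the same protein element be compared for its editable bases. The other genes searched had no match to this pattern, which was not a search for RRMs as a whole. Each run has 54 coding bases of the hg38 reference, 18 for the core and 18 on each side, written along the mRNA with cytosines in capitals. The stretch lies in exon 3 of HNRNPA2B1 (chr7:26197396-26197449, minus strand), HNRNPC (chr14:21234011-21234064, minus strand) and HNRNPD (chr4:82359483-82359536, minus strand), and in exon 2 of HNRNPDL (chr4:82428290-82428343, minus strand).
HNRNPA2B1: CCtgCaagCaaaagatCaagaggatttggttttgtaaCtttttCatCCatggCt
HNRNPC: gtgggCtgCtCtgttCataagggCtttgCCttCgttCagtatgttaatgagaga
HNRNPD: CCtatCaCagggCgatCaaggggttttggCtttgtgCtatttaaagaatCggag
HNRNPDL: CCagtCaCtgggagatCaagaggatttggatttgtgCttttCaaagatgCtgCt
HNRNPA2B1 had 10 cytosines in this stretch, while HNRNPC, HNRNPD and HNRNPDL had 9 each. Which of these cytosines were edited was not analysed here, since the table holds 1 value per gene.

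The hnRNP mRNAs stood high in EPKM among PCGs in the Input and the PABPN IP, and less so in the PABPC IP. Across PCGs the EPKM tended to be higher at a higher TPM, with a Spearman rho of 0.53 in the Input. Their median EPKM was 0.162 in the Input, 0.193 in the PABPN IP and 0.0770 in the PABPC IP, against PCG medians of 0.0273, 0.0334 and 0.0501. All 10 had an EPKM above 0 in each of the 3 fractions, as did 50.5% of PCGs. The median position of the hnRNP mRNAs among PCGs was the 90.4th percentile in the Input, the 96.3rd in the PABPN IP and the 65.1st in the PABPC IP. Against the 2720 PCGs whose TPM reached 50 in each IP these positions were 70.5, 90.7 and 36.9, so that the position in the PABPC IP fell below the middle among genes of high abundance.

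The EPKM of the hnRNP mRNAs, which is not scaled by abundance, was mostly higher with PABPN than with PABPC. HNRNPDL, HNRNPH1 and HNRNPU also had the higher TPM in the PABPN IP, while 6 of the 9 with a TPM had it in the PABPC IP. HNRNPU had an EPKM of 0.126 and 0.0808 in the PABPN IP and the PABPC IP, at a TPM of 65.7 and 34.01. The part of abundance in these EPKM differences was not tested. The EPKM was higher in the PABPN IP than in the PABPC IP for 9 of 10, while 37.4% of PCGs had that direction (3597 of 9607). Only HNRNPC, 1 of 10, was higher in the PABPC IP, the direction of 56.4% of PCGs. The median difference, PABPC IP minus PABPN IP, was -0.0498 EPKM over the 10 mRNAs and 0.0108 over PCGs. On the log2(EPKM + 0.01) scale 4 of 10 (HNRNPA2B1, HNRNPDL, HNRNPH1 and HNRNPK) exceeded the PABPC IP by 2-fold or more in the PABPN IP, against 21.1% of PCGs, and 0 of 10 did so in the other direction, against 36.3%. With a pseudocount of 0.1, 0 of 10 reached 2-fold in either direction, and few PCGs did, 3.71% toward the PABPN IP and 9% toward the PABPC IP, a background added after seeing the data.

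The PABPC IP also lay below the Input. All 10 hnRNP mRNAs had a higher EPKM in the Input than in the PABPC IP, against 37.4% of PCGs (3596 of 9607). Among the 2720 PCGs whose TPM reached 50 in each IP, a comparison chosen after seeing the data, 48.9% had this direction. It was found in 77.3% of the 1736 PCGs with an Input EPKM of at least 0.1, chosen likewise, a filter on 1 of the compared values that by itself raises the share, and in all 8 of the hnRNP mRNAs that pass it (all but HNRNPDL and HNRNPU). The PABPC IP was the lowest of the 3 fractions for 9 of 10, all but HNRNPC, against 19.5% of PCGs and 20.3% of those 2720. With the Input EPKM filter these were 7 of 8 and 31.0%. Between the Input and the PABPN IP the hnRNP mRNAs were divided. HNRNPA1, HNRNPC, HNRNPD and HNRNPL, 4 of 10, were higher in the Input, against 47.3% of PCGs, and the remaining 6 were higher in the PABPN IP.

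**Figure D1:**
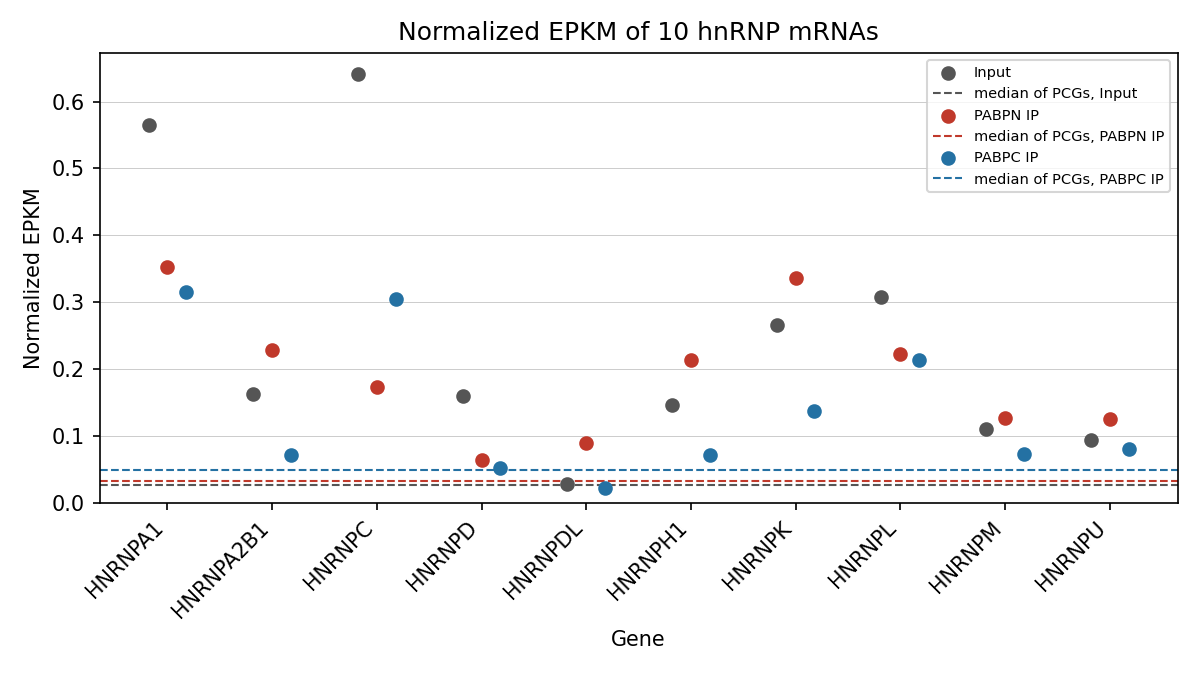
Normalized EPKM of the 10 hnRNP mRNAs, with 1 pooled value per fraction (points) and the median over PCGs of each fraction (dashed lines). The PABPC IP point is the lowest of the 3 for every gene except HNRNPC, and the Input points of HNRNPC (0.642) and HNRNPA1 (0.565) are the highest values.

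HNRNPA1 and HNRNPA2B1 encode closely related splicing regulators, of which hnRNP A1 shuttles between the nucleus and the cytoplasm. HNRNPA1 (ENSG00000135486, chr12:54280193-54287088) had an EPKM of 0.565 in the Input, 0.353 in the PABPN IP and 0.316 in the PABPC IP. The IP values were the highest of the 10 mRNAs in each IP and differed from each other 1.12-fold. In GENCODE release 44 the whole gene lies inside a longer non-coding gene on the same strand (ENSG00000258344), and the authors removed regions shared by genes before computing TPM. No TPM was given for HNRNPA1, and edits of the longer gene cannot be told apart from its own.

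HNRNPA2B1 (ENSG00000122566, chr7:26171151-26201529) had an EPKM of 0.164 in the Input, 0.229 in the PABPN IP and 0.0726 in the PABPC IP. The value in the PABPN IP was 3.16 times that in the PABPC IP, and the position among PCGs was the 97.9th percentile in the first and the 63.0th in the second. Abundance had another order, with a TPM of 78.3 in the Input, 97.5 in the PABPN IP and 124 in the PABPC IP. NFE2L3, on the opposite strand, overlaps 52.6% of the gene.

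HNRNPC encodes a nuclear hnRNP that binds uridine tracts and packages nascent transcripts. Its EPKM (ENSG00000092199, chr14:21209136-21269494) was 0.642 in the Input, 0.173 in the PABPN IP and 0.304 in the PABPC IP. It was the most edited of the 10 mRNAs in the Input, at the 99.3rd percentile of PCGs. Its PABPN IP value was 0.568 of its PABPC IP value, the reverse of the order seen in the other 9. Its TPM was 228 in the Input, 276 in the PABPN IP and 449 in the PABPC IP, the last the highest among the 9 measured.

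HNRNPD and HNRNPDL are related genes, both on the minus strand of chromosome 4 and 48.1 kb apart, and their products bind AU-rich elements. HNRNPD (ENSG00000138668, chr4:82352498-82374503) had an EPKM of 0.160 in the Input, 0.0647 in the PABPN IP and 0.0525 in the PABPC IP. The Input was 3.04 times the PABPC IP, the largest such ratio of the 10, and the IPs differed 1.23-fold. HNRNPDL (ENSG00000152795, chr4:82422565-82430462) had 0.0287, 0.0906 and 0.0232 in the same order. It was the least edited of the 10 in the Input, as well as with PABPC, and its PABPN IP value was 3.91 times its PABPC IP value, the largest ratio between the IPs. The TPM of HNRNPD was 65.6 in the Input, 64.5 in the PABPN IP and 84.8 in the PABPC IP, and that of HNRNPDL was 97.4, 182 and 147. The neighbours thus had opposite orders of TPM in the IPs, and HNRNPDL had the lower Input EPKM at the higher Input TPM.

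HNRNPH1 encodes a splicing regulator that binds runs of guanosines. Its EPKM (ENSG00000169045, chr5:179614178-179634784) was 0.147 in the Input, 0.213 in the PABPN IP and 0.0721 in the PABPC IP, a difference of 2.96-fold between the IPs. Its TPM in the PABPN IP stood higher over the Input than that of the other 8 hnRNP mRNAs, with 59.2 in the Input, 173 in the PABPN IP and 77.3 in the PABPC IP.

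HNRNPK and HNRNPL encode proteins that bind C-rich and CA-rich RNA. The EPKM of HNRNPK (ENSG00000165119, chr9:83968083-83980631) was 0.266 in the Input, 0.336 in the PABPN IP and 0.137 in the PABPC IP, so that the IPs differed 2.44-fold. The difference of -0.198 EPKM was the largest of the 10. HNRNPL (ENSG00000104824, chr19:38836370-38852347) had 0.309, 0.222 and 0.214, with nearly equal IPs (1.04-fold). The TPM of HNRNPK was 254 in the Input, 241 in the PABPN IP and 370 in the PABPC IP, and that of HNRNPL was 145, 161 and 241. The genes overlap a non-coding antisense gene, HNRNPK-AS1 (28.2% of HNRNPK), and a protein-coding gene on the same strand, ENSG00000268083 (23.8% of HNRNPL).

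HNRNPM and HNRNPU encode a splicing regulator that binds GU-rich RNA and a chromatin-associated protein that binds both RNA and DNA. HNRNPM (ENSG00000099783, chr19:8444767-8489114) had an EPKM of 0.112 in the Input, 0.127 in the PABPN IP and 0.0732 in the PABPC IP. HNRNPU (ENSG00000153187, chr1:244840638-244864560) had 0.0951, 0.126 and 0.0808, the smallest ratio of Input to PABPC IP (1.18). The PABPN IP exceeded the PABPC IP 1.74-fold for HNRNPM and 1.56-fold for HNRNPU. The TPM of HNRNPM hardly differed between fractions, at 56.3, 52.8 and 55.5, while that of HNRNPU was 39.3 in the Input, 65.7 in the PABPN IP and 34.01 in the PABPC IP. COX20, on the opposite strand, overlaps 18.5% of HNRNPU.

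**Figure D2:**
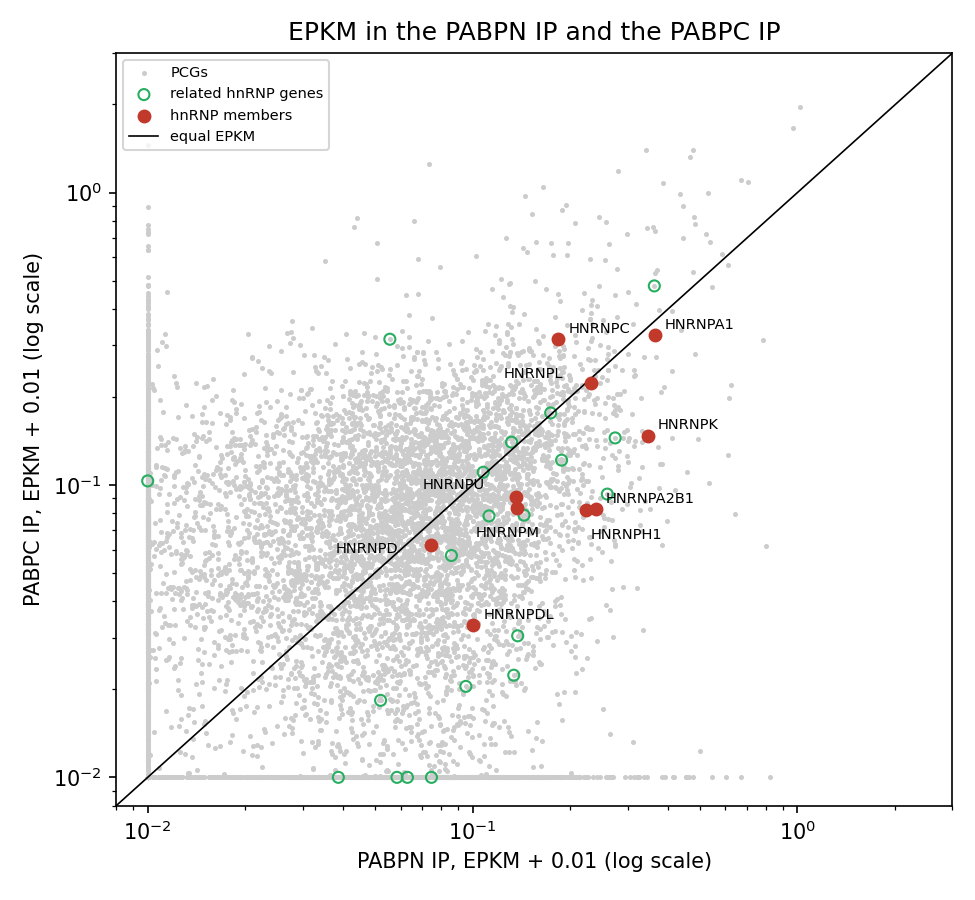
EPKM + 0.01 in the PABPN IP (x axis) and in the PABPC IP (y axis), both on log scales, for PCGs (grey), related hnRNP genes (green circles) and the 10 hnRNP mRNAs (red). Of the red points, 9 lie under the line of equal EPKM and HNRNPC lies above it.

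The order of the 10 mRNAs differed between fractions. From the highest EPKM, the Input had HNRNPC, HNRNPA1, HNRNPL, HNRNPK, HNRNPA2B1, HNRNPD, HNRNPH1, HNRNPM, HNRNPU and HNRNPDL. The PABPN IP had HNRNPA1, HNRNPK, HNRNPA2B1, HNRNPL, HNRNPH1, HNRNPC, HNRNPM, HNRNPU, HNRNPDL and HNRNPD. The PABPC IP had HNRNPA1, HNRNPC, HNRNPL, HNRNPK, HNRNPU, HNRNPM, HNRNPA2B1, HNRNPH1, HNRNPD and HNRNPDL. With no spread over replicates, whether neighbours in these orders differ cannot be said, and HNRNPM, HNRNPA2B1 and HNRNPH1 lay between 0.0721 and 0.0732 in the PABPC IP. Over the 9 mRNAs with a TPM, EPKM and TPM of the same fraction had Spearman rhos of 0.70 in the Input, 0.40 in the PABPN IP and 0.45 in the PABPC IP, and over PCGs these were 0.53, 0.25 and 0.45. Both are descriptions across genes of the same libraries.

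Most of the hnRNP mRNAs were abundant. The median TPM of the 9 was 78.3 in the Input, 161 in the PABPN IP and 124 in the PABPC IP, against PCG medians of 15.8, 38.4 and 28.9. Of the 9, 6 exceeded the upper PCG quartile (the 75th percentile) in all 3 fractions. The share of PCGs that did so in all 3 was not computed. In such bulk samples, fewer cells holding an mRNA and less mRNA per cell cannot be told apart. By percentile among the PCGs of the same fraction, the positions ran from the 54.8th for HNRNPU in the PABPC IP to the 97.5th for HNRNPK in the Input, and HNRNPM in the PABPN IP was at the 63.2nd.

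**Figure D3:**
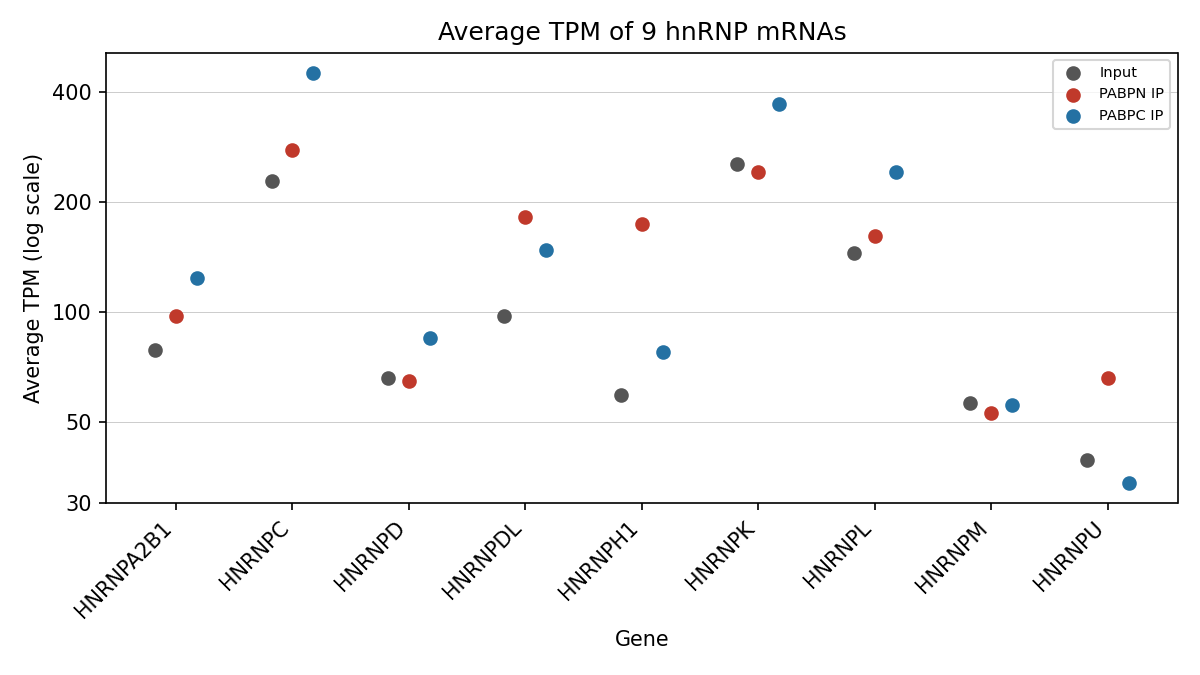
Average TPM of the 9 hnRNP mRNAs with a TPM, on a log scale, with 1 pooled value per fraction. HNRNPDL, HNRNPH1 and HNRNPU have their highest TPM in the PABPN IP, and HNRNPM has its highest in the Input (56.3).

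Ratios of TPM were centred on the median PCG, since TPM was higher in the IPs than in the Input for most PCGs, with a median log2 ratio of 1.14 for the PABPN IP, 0.99 for the PABPC IP and -0.19 for the PABPC IP over the PABPN IP. Relative to the median PCG, the hnRNP mRNAs were low in the PABPN IP compared with the Input. Their median centred log2 ratio was -0.86. A ratio under -0.5 was found for 6 of 9 (HNRNPA2B1, HNRNPC, HNRNPD, HNRNPK, HNRNPL and HNRNPM), against 21.6% of PCGs, and a ratio above 0.5 for 0 of 9, against 24.5%. HNRNPH1 was the exception, at 0.41, while HNRNPDL had -0.24 and HNRNPU -0.40. This direction rests on the centring, because without it the median was 0.28, 0 of 9 were under -0.5, against 0.583% of PCGs, and 3 of 9 (HNRNPDL, HNRNPH1 and HNRNPU) were above 0.5, against 84.6%, backgrounds added after seeing the data. When the centring used PCGs whose TPM reached 50 in each IP, 5 of 9 were under -0.5, against 8.39% of the 9607 PCGs, with HNRNPC at the limit (-0.501), HNRNPH1 stood at 0.77 and HNRNPDL turned to 0.12.

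Relative to the median PCG, all 9 were also low in the PABPC IP compared with the Input, with a median of -0.45 and a range from -1.20 for HNRNPU to -0.015 for HNRNPC, which turned to 0.033 when the centring used PCGs whose TPM reached 1 in each IP. A ratio under -0.5 was found for 4 of 9 (HNRNPD, HNRNPH1, HNRNPM and HNRNPU), against 18.1% of PCGs, and a ratio above 0.5 for 0 of 9, against 8.37%. Without the centring the median was 0.54, 7 of 9 had a TPM above that of the Input in the PABPC IP, against 95.4% of PCGs, 0 of 9 were under -0.5, against 0.885%, and 5 of 9 were above 0.5, against 81.3%. With the centring on PCGs whose TPM reached 50 in each IP, 8 of 9, all but HNRNPC, were under -0.5, against 31.7% of the 9607 PCGs. These backgrounds too were added after seeing the data.

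Between the IPs the hnRNP mRNAs fell on both sides. The centred log2 ratio of the PABPC IP over the PABPN IP was above 0.5 for 5 of 9 (HNRNPA2B1, HNRNPC, HNRNPD, HNRNPK and HNRNPL), against 30.4% of PCGs, and under -0.5 for HNRNPH1 (-0.97) and HNRNPU (-0.76), 2 of 9, against 31.5%. HNRNPC had the highest ratio, 0.89. The counts depended on the scaling, by alternatives whose backgrounds were added after seeing the data. Without centring 3 of 9 (HNRNPC, HNRNPK and HNRNPL) were above 0.5, against 23% of PCGs. With the centring on PCGs whose TPM reached 50 in each IP, 0 of 9 were above 0.5, against 9.21% of the 9607 PCGs, and 3 of 9 (HNRNPDL, HNRNPH1 and HNRNPU) were under -0.5, against 54.2%. The median of 0.53 then changed sign to -0.076, and HNRNPA2B1, HNRNPD and HNRNPM turned negative. HNRNPH1 and HNRNPU were below 0 under each of the 5 scalings run, and HNRNPDL (-0.11) turned to 0.023 when the centring used PCGs whose TPM reached 1 in each IP. The 3 ratios share their columns and are given side by side.

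**Figure D4:**
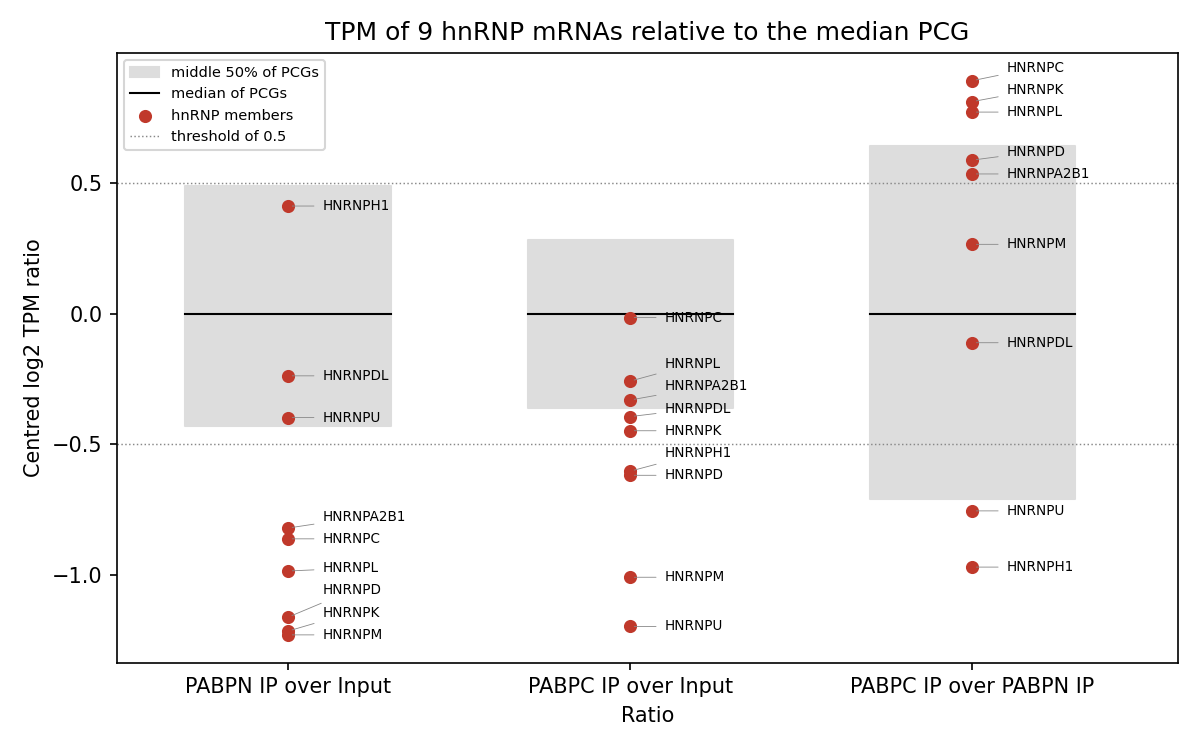
Centred log2 TPM ratios of the 9 hnRNP mRNAs (red points) for the 3 pairs of fractions, with the median (line) and the middle 50% of PCGs (grey). For the PABPN IP over the Input, 6 points lie under -0.5 and HNRNPH1 lies at 0.41. Without centring every point of the first pair would move up by 1.14 and of the second by 0.99, which turns most of their signs.

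Other hnRNP genes and close relatives of the 10 were taken as a list of 20. In this list 14 of 20 had a higher EPKM in the PABPN IP than in the PABPC IP, against 37.4% of PCGs, and 6 of 20 the reverse, against 56.4%. At least 2-fold on the log2(EPKM + 0.01) scale, 9 were higher in the PABPN IP, against 21.1% of PCGs, and 2 in the PABPC IP, against 36.3%. Of these 9, 4 (HNRNPA0, PCBP1, PTBP3 and RALY) rest on a listing at 0 for the PABPC IP. Of the 2, HNRNPH3 rests on a listing at 0 for the PABPN IP. With a pseudocount of 0.1 the counts were 0 and 1 (PTBP1), against 3.71% and 9% of PCGs. The PABPC IP was the lowest fraction for 10 of 20, against 19.5% of PCGs, and the Input exceeded it for 15 of 20, against 37.4%. Of the 14 with an Input EPKM of at least 0.1, a filter added after seeing the data, these were 9 and 14, against 31.0% and 77.3% of the PCGs that pass it. The median difference, PABPC IP minus PABPN IP, was -0.0412 EPKM.

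Relatives did not always share the order of the member they resemble. HNRNPA3 had an EPKM of 0.781 in the Input, the highest of the 20, with 0.250 in the PABPN IP and 0.0830 in the PABPC IP. HNRNPA0 had 0.112 and 0.0485, with a listing at 0 for the PABPC IP. HNRNPAB, related to HNRNPD, had 0.470, 0.265 and 0.135. The direction between the IPs in these 3 was that of HNRNPA2B1, HNRNPA1 and HNRNPD. These 3 relatives were highest in the Input, as were HNRNPA1 and HNRNPD, while HNRNPA2B1 was highest in the PABPN IP.
HNRNPF and HNRNPH3, relatives of HNRNPH1, had the opposite direction, with 0.353 in the PABPN IP and 0.469 in the PABPC IP for HNRNPF, and a listing at 0 and 0.0932 for HNRNPH3. HNRNPH2 had 0.178 and 0.112, the direction of HNRNPH1. PCBP1 and PCBP2, which like hnRNP K bind C-rich RNA through KH domains, had 0.0647 and a listing at 0, and 0.164 and 0.166. HNRNPLL, the relative of HNRNPL, had 0.102 and 0.0684. RALY, the relative of HNRNPC, had 0.0286 and a listing at 0. Its direction was not that of HNRNPC, but this rests on a small value against a listing at 0 and cannot be read as a difference. HNRNPUL1 had nearly equal IPs (0.122 and 0.130), and HNRNPUL2 had 0.134 and 0.0688. The largest EPKM difference toward the PABPC IP in the list was in PTBP1, a splicing repressor that binds pyrimidine tracts, with 0.0456 in the PABPN IP and 0.305 in the PABPC IP, and it was listed at 0 in the Input.

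In abundance the list of 20 had medians of -0.56 for the centred log2 TPM ratio of the PABPN IP over the Input, -0.28 for the PABPC IP over the Input and 0.44 for the PABPC IP over the PABPN IP. For the PABPN IP over the Input 11 of 20 were under -0.5, against 21.6% of PCGs, and 1 was above 0.5, against 24.5%. Without centring 0 of 20 were under -0.5 and 11 of 20 were above 0.5, against 84.6% of PCGs. Centred on PCGs whose TPM reached 50 in each IP, 3 of 20 were under -0.5, against 8.39% of the 9607 PCGs. The 3 were HNRNPAB, HNRNPF and PCBP2. Both alternatives have backgrounds added after seeing the data. The 1 above 0.5 with the main centring was PTBP2 (1.42), and HNRNPAB had the lowest value (-1.32). Without centring each value would shift by the PCG median of its ratio, up for the ratios over the Input and down for the PABPC IP over the PABPN IP. For that last ratio 8 of 20 were above 0.5, against 30.4% of PCGs, and 3 were under -0.5, against 31.5%. When centred on PCGs whose TPM reached 50 in each IP, 2 were above 0.5, against 9.21%, and 8 were under -0.5, against 54.2%. The median subtracted from it was then 0.42 and no longer -0.19. For the PABPC IP over the Input, 5 of 20 under -0.5, against 18.1%, became 12, against 31.7%.

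SR splicing factors and cytosolic ribosomal protein genes were set beside the hnRNP mRNAs. Among 14 SR factors 5 had a higher EPKM in the PABPN IP and 9 in the PABPC IP, against 37.4% and 56.4% of PCGs, and the PABPC IP was the lowest fraction for 2, against 19.5%. At least 2-fold on the log2(EPKM + 0.01) scale, 5 of 14 were higher in the PABPN IP, against 21.1% of PCGs. In the PABPC IP 3 were, against 36.3%, so that the balance between the IPs turned. With a pseudocount of 0.1 these were 1 (SRSF5) and 0, against 3.71% and 9%. An EPKM above 0 in all 3 fractions was given for 12 of 14, all but SRSF5 and TRA2B, which were both among the 5. Their median centred log2 TPM ratio of the PABPN IP over the Input was -0.031. Among 84 ribosomal protein genes 10 had a higher EPKM in the PABPN IP and 72 in the PABPC IP, with the same PCG shares beside them, and the PABPC IP was the lowest fraction for 6. Their median EPKM was 0.429 in the Input, 0.144 in the PABPN IP and 0.410 in the PABPC IP, so that the hnRNP mRNAs had the lower median in the Input and the PABPC IP and the higher one in the PABPN IP. Their median centred log2 ratio of the PABPN IP over the Input was -1.19, and of the PABPC IP over the Input 0.64, where the hnRNP mRNAs had -0.86 and -0.45.

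The genes share a rich annotation of alternative transcripts. The median number of annotated transcripts was 32 for the 10 hnRNP genes and 8 for PCGs. All 10 had at least 1 transcript annotated as a target of nonsense-mediated decay, from 1 in HNRNPC, HNRNPL and HNRNPM to 35 in HNRNPA2B1. The PCG median was 0 such transcripts, and the share of PCGs with at least 1 was not computed. For 9 of 10, all but HNRNPDL, a transcript with a retained intron was annotated as well. Both kinds were annotated for 38.7% of PCGs. Length set the genes apart less, with a median mRNA of 3116.5 bases against 3269 and a median coding length of 1306.5 against 1323. The 3′UTR ranged from 260 bases in HNRNPM to 4153 in HNRNPU. The EPKM and TPM are given per gene, so the part that each transcript has in them was not tested.

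Pseudogene copies of hnRNP genes are numerous in the genome, and reads of near-identical copies may be shared, which leaves the values of HNRNPA1, HNRNPC, HNRNPK, HNRNPL and HNRNPU uncertain. Under the symbols of these 5 genes 13 copies were listed, 4 of them without a TPM. HNRNPA1P48, annotated as protein-coding in the table, was the only one of these 13 whose TPM reached 5, with 5.88 in the Input, 4.54 in the PABPN IP and 14.5 in the PABPC IP. HNRNPA1L2, an HNRNPA1-like gene given under the other observations, was not counted among the 13. Without the 4 members that have a copy with a TPM of at least 1 (HNRNPA1, HNRNPK, HNRNPL and HNRNPU), the EPKM was higher in the PABPN IP for 5 of the 6 left.

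By the distance over 6 values, log2(EPKM + 0.01) and log2 TPM in the 3 fractions, the PCGs nearest to the median profile of the hnRNP mRNAs were UBAP2L (0.53), CSNK1A1 (0.62), BUB3 (0.69), GLTP (0.72) and BMI1 (0.78), of 9598 compared. UBAP2L had an EPKM of 0.155 in the Input, 0.145 in the PABPN IP and 0.0764 in the PABPC IP, and CSNK1A1 had 0.163, 0.183 and 0.112. Their likeness in these values was the ground on which they were chosen.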

How the data were processed

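The members and lists were chosen with earlier results of these data known. Per the submitters' processing notes, STAR, featureCounts 2.0.2 and hg38 were used, and the authors counted reads on an annotation freed of overlapping regions and readthrough transcripts. The deposited EPKM is a signal of edits from which the authors had subtracted the control, and how differences under 0 were treated is not given in the sources used here. The deposited TPM adds exonic and intronic TPM and is an average per fraction. Which samples entered it is not given.

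Each gene has at most 1 pooled value of each measure per fraction, so medians, percentiles (ties counted at their middle), shares of PCGs and log2 ratios were computed without a test. Filters were a TPM of 5 in both IPs, a pseudocount of 0.01 EPKM, a 2-fold EPKM difference and a centred log2 TPM ratio of 0.5. Each of the 10 members was named, as were close relatives and the extremes of the related list, copies with a TPM of 5 or more, and the 5 nearest PCGs. Transcript features came from GENCODE release 44, a later release than the authors', where 18806 of 18869 genes were found by identifier, and 9605 of 9607 PCGs had a canonical transcript. The coding stretch of 1 further member is not reported here. Centring and percentiles were tested on simulated data, and the outcome is not given here. Python 3.11.15, pandas 2.3.3, NumPy 2.4.6 and matplotlib 3.10.9 were used.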

Additional observations from a re-analysis of the deposited data

Results flagged for a closer look

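Signal was found in genes that the comparisons above do not use, the 4 processed copies that have an EPKM and no TPM. An EPKM above 0 exceeds the control that the authors subtracted. HNRNPA1P7 had an EPKM of 0.0575 in the Input, 0.279 in the PABPN IP and 0.238 in the PABPC IP, the highest of these copies in each IP. HNRNPA1P16 had 0.0768 in the Input and 0.0330 in the PABPN IP, with a listing at 0 for the PABPC IP. HNRNPCP2 had 0.0193 in the Input and 0.0700 in the PABPN IP, and HNRNPCP1 had 0.0180 in the PABPN IP, with the other fractions listed at 0. Whether reads of the parent mRNAs entered these values was not tested.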

How the results depend on the processing

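No paired analysis was possible because each column holds pooled values. Leaving out a replicate could not be run for the same reason. A value was counted as moved when it differed from the main one by over 10%, or a count by over 1.5 times. Causes of these changes were not tested, unless the construction of an alternative shows one.

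The median EPKM difference, PABPC IP minus PABPN IP (-0.0498), kept its sign under each alternative run, at -0.0589 for the mean and -0.0608 without the 4 members whose pseudogene copy had a TPM of at least 1, and as a median log2 ratio of -0.65 with a pseudocount of 0.01 and -0.36 with 0.1. Of the 10 members, 1 was higher in the PABPC IP, and 0 reached 2-fold with either pseudocount. The 9 that were higher in the PABPN IP became 4 with a 2-fold difference at a pseudocount of 0.01 and 0 at 0.1, 5 of the 6 left without those 4 members and 8 of the 9 left without HNRNPA1, alternatives chosen after seeing the data. The median percentile in the PABPC IP (65.1) was 74.5 among all listed PCGs, 36.9 among PCGs whose TPM reached 50 in both IPs and 55.9 among PCGs with EPKM above 0 in both IPs, and that in the Input (90.4) was 70.5 with the TPM of 50.

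The median centred log2 TPM ratio of the PABPN IP over the Input (-0.86) became 0.28 without centring and 0.083 with TPM rescaled to the same total, and was -0.50 when centred on PCGs with a TPM of 50 and -0.97 with a TPM filter of 1. For the PABPC IP over the Input (-0.45) these were 0.54, 0.32, -0.70 and -0.40. For the PABPC IP over the PABPN IP (0.53) they were 0.34, 0.31, -0.076 and 0.67. The direction of the ratios over the Input is therefore a direction relative to the median PCG alone.

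The share of PCGs with a higher EPKM in the PABPN IP than in the PABPC IP (37.4%) was 30.3% with a TPM of 50 in both IPs, 32.7% with an Input EPKM of at least 0.1 and 40.3% over all listed PCGs, all chosen after seeing the data. The number of edits behind an EPKM is unknown, so small differences such as that of HNRNPL cannot be read.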

Other observations

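Genes beside or within the hnRNP genes, and an HNRNPA1-like gene, were looked up after the values had been seen. HNRNPD-DT, a non-coding gene on the opposite strand from HNRNPD that overlaps it over 362 bases, had a TPM of 1.997 in the Input, 13.6 in the PABPN IP and 4.70 in the PABPC IP, while HNRNPD had its highest TPM in the PABPC IP. Its EPKM was 0.103 in the PABPN IP and listed at 0 elsewhere. COX20, which overlaps HNRNPU, had an EPKM of 0.00847 in Input RNA and 0.0566 in the PABPC IP, with a listing at 0 for the PABPN IP, the reverse of the order of HNRNPU in the IPs. NFE2L3, which overlaps HNRNPA2B1, had an EPKM of 0.00522 in the Input and was listed at 0 in both IPs. HNRNPA1L2, an HNRNPA1-like gene, had an EPKM of 0.268 in the Input, 0.185 in the PABPN IP and 0.170 in the PABPC IP, the same order as HNRNPA1 at a TPM of 2.72, 7.35 and 5.67.

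Of the 13 pseudogene copies of hnRNP genes, an EPKM above 0 was given for 11 in the PABPN IP and for 5 each in the Input and the PABPC IP. The 13 include HNRNPA1P48, annotated as protein-coding, and HNRNPLP2, an unprocessed pseudogene. Both were above 0 in the PABPN IP, and neither kind is in the background that follows. Among the 870 processed pseudogenes of the table, a background added after seeing the data, an EPKM above 0 was given for 56.0% with PABPN, 43.1% with PABPC and 23.1% of Input values, so that the PABPN IP had the largest share there too.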
